A study of Mus musculus with 7 samples.

Results

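The genes described here code for enzymes that slide, eject or exchange nucleosomes, for their partner subunits, and for bromodomain proteins. They were measured in single germinal vesicle (GV) oocytes of the mouse with and without an oocyte deletion of *Setd1b*. Members were chosen by gene symbol alone: all symbols beginning with *Smarc*, *Ino80*, *Baz1*, *Baz2*, *Bptf*, *Hells* or *Atrx*, or with *Chd* or *Brd* and a digit, where the table's transcript lay on the strand of the gene it was named after. That rule found 42 rows for 40 genes, of 15476 genes named in this way among 33437 transcripts in all. Where a gene had several rows (*Baz2b* and *Brd3*), the row with the highest mean was used. The 40 genes comprised 8 of the SWI/SNF complexes, 7 of the ISWI and BAZ group, 9 CHD genes, 3 of the INO80 complex, 4 other helicases of the SNF2 family, 5 further bromodomain genes and 4 symbols of pseudogenes or opposite-strand transcripts. *Smarcc2*, *Smarcd3*, *Brd9*, *Chd8*, *Ino80b* and *Ino80e* were not analysed here.

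Remodelling complexes are built around an ATPase of the SNF2 type that uses ATP to break and reform contacts between DNA and the histones. SWI/SNF complexes mainly open chromatin, and ISWI enzymes space nucleosomes evenly. Some CHD enzymes read methylated histone tails or are motors of the NuRD deacetylase complex, and INO80 complexes act on the histone variant H2A.Z. Bromodomains bind acetylated lysine, and several of these proteins carry them next to the motor. SETD1B is a methyltransferase for H3K4, and chromodomains of CHD1 and the PHD finger of BPTF are known to bind methylated H3K4.

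All females were C57BL6 (C57BL/6OlaHsd in the study's methods), 21 days old and homozygous for the floxed *Setd1b* allele per the labels. The 4 *Setd1b* cKO libraries came from females that also carried *Gdf9*-Cre, which is active in oocytes from early follicle growth, and the 3 *Setd1b* WT libraries from females labelled negative for it. Each library held the cDNA of 1 oocyte, and whether oocytes shared a mother is not given in the labels. The p-values therefore measure the spread between these oocytes. The study's methods also describe control females that carry *Gdf9*-Cre with an intact *Setd1b* allele, and which control each oocyte came from is known only from the labels.

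The libraries held between 8582493 and 12972366 mapped reads, so that 1 read was worth 0.0771 to 0.117 RPM (reads scaled to the mapped reads of the library). Between 13.2% and 16.4% of the mapped reads of the *Setd1b* cKO libraries lay outside the transcripts of the table, against 9.57% to 9.90% in *Setd1b* WT. *Setd1b* itself had 8.31, 16.7, 12.8 and 2.68 RPM in *Setd1b* cKO and 17.7, 16.3 and 8.61 RPM in *Setd1b* WT. The genotypes overlapped (log2 fold change -0.61, SE 0.49, adjusted p = 0.533 in limma). Without cKO replicate 4, the lowest oocyte, the log2 fold change was -0.15, and without WT replicate 3 it was -0.91. Since the value covers the whole gene and not the deleted exons, it does not check the labels. *Setd1b* cKO replicate 4 and *Setd1b* WT replicate 3 stood apart from the other libraries of their genotype. Pearson's r across transcripts between cKO replicate 4 and the other cKO libraries was 0.907 to 0.932, against 0.962 to 0.968 among those 3, and WT replicate 3 had 0.944 and 0.949 with the other WT libraries, against 0.973 between them. All 14 oocyte markers measured (of 15) had at least 1 RPM in every library, with a summed level of 28008 to 29435 RPM in *Setd1b* cKO and 34179 to 35565 RPM in *Setd1b* WT. The 17 granulosa cell markers measured (of 19) summed to 122 to 294 RPM in *Setd1b* cKO and 94.8 to 277 RPM in *Setd1b* WT, with *Amh* and *Foxl2* at 3 reads or fewer in every library and 4 markers (*Serpine2*, *Nr5a2*, *Cyp19a1* and *Kitl*) at 1 RPM or more in every library. The 8 markers of other ovary cells (of 10) summed to 26.2 to 43.3 RPM and 25.8 to 32.7 RPM, with *Cyp17a1* at 3 reads or fewer everywhere and 3 (*Pecam1*, *Tek* and *Cd68*) at 1 RPM or more everywhere. The summed levels of both non-oocyte lists overlapped between the genotypes. Those of the oocyte list did not, and every *Setd1b* cKO library had a lower sum than every *Setd1b* WT library.

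The question was whether loss of *Setd1b* altered the RNA of the remodelling machinery. Most of it showed no difference that passed the test. *Chd9*, a CHD-family remodeller, fell, and the transcript named *Ino80c*, after a subunit of the INO80 complex, rose, each about 2-fold. Each result was lost in 5 of 7 fits with 1 library left out. The *Ino80c* transcript begins 57.1 kb upstream of the nearest annotated start, so its value is not that of the annotated gene alone. Of the 40 genes, 36 had at least 1 RPM in at least 3 libraries and were tested with limma across all 18179 transcripts that passed the same filter (called genes here). The threshold combined an adjusted p (Benjamini-Hochberg) under 0.05 with a difference of more than 2-fold in log2(RPM + 1), a scale on which differences of weakly expressed genes come out too small. It was passed by 2 of the 36 genes (5.56%), 1 higher and 1 lower, beside 5.71% of all genes tested (3.76% higher and 1.95% lower). The share of members was thus near that of all genes. An unadjusted p under 0.05 was reached by 3 members (*Chd9*, *Ino80c* and *Chd1*), beside 21.7% of all genes. Genotypes did not overlap for 5 members (13.9%), beside 20.3% of all genes. Of the genes without overlap 2 were higher in *Setd1b* cKO (*Ino80c* and *Baz1b*) and 3 lower, among them *Chd9* and *Chd4*. In the SWI/SNF, ISWI and BAZ, other SNF2 and bromodomain families 0 genes passed the limma threshold and 0 had an unadjusted p under 0.05. Voom on the recovered reads also called 1 member higher and 1 lower, again *Ino80c* and *Chd9*.

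Differences of the members were mostly small. The log2 fold change was between -0.5 and 0.5 for 30 of the 36 genes (83.3%), beside 64.9% of all genes tested. The members had a higher level than most genes, with a median of 32.3 RPM against 8.83 RPM, and small differences are more frequent at high level. At a mean level of 8 RPM or more the values were 26 of 30 members (86.7%) and 70.7% of all 9503 genes. The median log2 fold change was 0.05 over the members and 0.12 over all genes, and 20 members lay above 0 and 16 below, where 60.3% of all genes tested lay above 0. Over members with a mean level of 8 RPM or more the median was 0.08, and over all genes of that level 0.06. The 95% confidence interval lay within a 2-fold change in either direction for 25 of the 36 genes, with a median standard error of 0.25. For the other 11 a 2-fold difference was not excluded by these 7 oocytes.

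**Figure D1:**
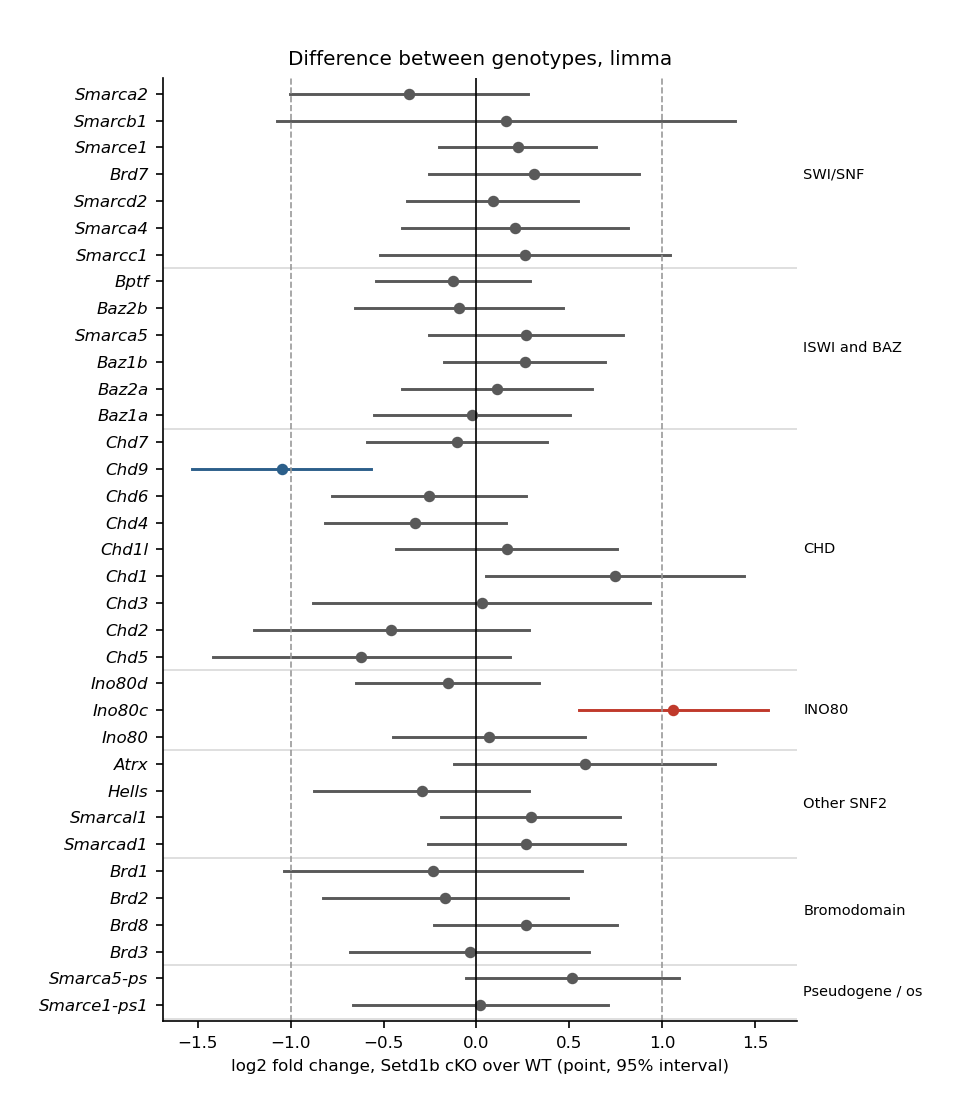
Log2 fold change of *Setd1b* cKO over *Setd1b* WT (x axis, on the log2(RPM + 1) scale) for 35 of the 36 tested genes, in order of family, where points are the limma estimates and lines their 95% confidence intervals. Dashed lines mark a 2-fold change; *Chd9* (blue, -1.05) and *Ino80c* (red, 1.06) passed the threshold, and the interval of *Chd1* (0.05 to 1.44) also lay above 0.

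*Chd9* was the CHD gene that fell. All 9 genes of the family were tested, 1 passed the threshold, 3 had a log2 fold change above 0 and 6 below, and their median was -0.25, where 5.71% of all genes passed and 60.3% lay above 0. *Chd9* (chr8:90828090-91054508, plus strand, GRCm38), whose product has chromodomains and an ATPase of the SNF2 type, had 33.7, 45.6, 39.7 and 31.0 RPM in *Setd1b* cKO oocytes and 79.5, 87.6 and 67.6 RPM in *Setd1b* WT oocytes. Every cKO oocyte lay below every WT oocyte, and the highest cKO oocyte had 45.6 RPM where the lowest WT oocyte had 67.6 RPM. The means were 37.5 ± 6.53 RPM (SD, n = 4) and 78.2 ± 10.1 RPM (SD, n = 3), and the log2 fold change was -1.05 (SE 0.22, 95% confidence interval -1.53 to -0.57, adjusted p = 0.0199 in limma). The call was lost when 1 library was left out in 5 of 7 cases. It was lost by the adjusted p without cKO replicate 1 or 3 or WT replicate 1 or 2, and by the size alone without cKO replicate 4. Over the 7 the log2 fold change was -1.15 to -0.96, with limma adjusted p from 0.0213 to 0.106. Over all 23 alternatives the call was lost in 9, in 4 of them by the size alone. Without both cKO replicate 4 and WT replicate 3, which stood apart, the log2 fold change was -1.07 (adjusted p = 0.00540 in limma). That setting was chosen after seeing the data.

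The promoter of *Chd9* is shown because this gene fell. CXXC1, a partner of SETD1B, is known to bind unmethylated CG, but neither its binding nor methylation at this promoter was examined here. The RefSeq window (GRCm38.p6, chr8:90828585-90828884, plus strand, 250 bases before to 50 after the annotated start) is printed with capitals for each CG. This annotated start lies 745 bases inside the 5' end of the deposited transcript. The nearest start annotated in GENCODE lies 262 bases inside that end, upstream of the window.
Chd9 promoter: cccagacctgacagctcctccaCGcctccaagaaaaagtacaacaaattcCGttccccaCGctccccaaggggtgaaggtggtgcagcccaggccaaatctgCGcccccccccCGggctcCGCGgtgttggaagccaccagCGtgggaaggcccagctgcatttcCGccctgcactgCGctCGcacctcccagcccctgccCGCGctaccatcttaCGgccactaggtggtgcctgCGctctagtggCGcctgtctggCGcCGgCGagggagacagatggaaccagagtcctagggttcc
It holds 19 CG, and 28.1% of all 32851 RefSeq promoters of this length hold as many or more.

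*Chd1*, a remodeller whose chromodomains bind methylated H3K4, had 5.05, 11.6, 8.53 and 8.62 RPM in *Setd1b* cKO and 3.40, 5.70 and 4.49 RPM in *Setd1b* WT. Only cKO replicate 1 lay within the range of the WT oocytes. The log2 fold change was 0.75 (SE 0.31, 95% confidence interval 0.05 to 1.44), and the limma adjusted p of 0.194 missed the threshold.

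*Chd4*, the main ATPase of the NuRD deacetylase complex, had 29.6, 26.9, 19.6 and 26.5 RPM in *Setd1b* cKO and 32.3, 30.1 and 34.0 RPM in *Setd1b* WT. The genotypes did not overlap, but cKO replicate 1 and WT replicate 2 were within 1 RPM of each other. The log2 fold change was -0.33 (SE 0.22, 95% confidence interval -0.82 to 0.16, adjusted p = 0.441 in limma). The annotated starts of *Chd4* lie 7.47 kb or more inside the deposited transcript. *Chd3*, another NuRD motor, was low, with 1.29, 2.88, 5.40 and 2.56 RPM in *Setd1b* cKO and 2.92, 1.31 and 4.58 RPM in *Setd1b* WT. Both genotypes spanned the same levels, and the log2 fold change was 0.03 (SE 0.41, adjusted p = 0.98 in limma).

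*Chd6*, a close relative of *Chd9*, had 40.5, 40.9, 45.3 and 66.3 RPM in *Setd1b* cKO and 49.2, 56.7 and 64.6 RPM in *Setd1b* WT. The first 3 cKO oocytes lay below all WT oocytes and cKO replicate 4 above them. Its log2 fold change was -0.25 (SE 0.24, adjusted p = 0.601 in limma). *Chd7*, mutated in CHARGE syndrome and like *Chd6* and *Chd9* a member of the third CHD subfamily, had a log2 fold change of -0.11 (SE 0.22, 95% confidence interval -0.59 to 0.38, adjusted p = 0.838 in limma). The intervals of *Chd6* (-0.78 to 0.27) and *Chd7* did not reach the estimate of *Chd9*, although the difference between these genes was not itself tested. The remaining CHD genes had log2 fold changes of 0.16 (*Chd1l*), -0.46 (*Chd2*) and -0.62 (*Chd5*), none past the threshold, and the last of these was under 3 RPM in every library.

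Of the INO80 complex, 1 of 3 genes passed the threshold (5.71% of all genes did) and the motor did not. *Ino80c* (chr18:24104757-24179064, minus strand, GRCm38), a small subunit that joins the ATPase module, had 17.9, 18.5, 20.3 and 18.1 RPM in *Setd1b* cKO and 7.77, 7.4 and 10.4 RPM in *Setd1b* WT. All cKO oocytes lay within 3 RPM of each other and above every WT oocyte. The means were 18.7 ± 1.09 RPM (SD, n = 4) and 8.52 ± 1.63 RPM (SD, n = 3), and the log2 fold change was 1.06 (SE 0.23, 95% confidence interval 0.55 to 1.57, adjusted p = 0.0236 in limma). As with *Chd9*, the call was lost in 5 of 7 cases when 1 library was left out (cKO replicates 1, 2 and 3 and WT replicates 1 and 2), with log2 fold changes of 0.98 to 1.20 and limma adjusted p from 0.0255 to 0.111 over the 7. Without both libraries that stood apart, a setting chosen after seeing the data, the log2 fold change was 1.21 (adjusted p = 0.00894 in limma). After centring each library on its median gene the log2 fold change was 0.91, under 2-fold. The deposited transcript spans 74.3 kb, of which the annotated gene covers 17.2 kb at the 3' end, and its 5' end lies 57.1 kb upstream of the nearest annotated start. How the reads of the value were spread over this span was not analysed here, so that it cannot be read as the level of the annotated gene alone.

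*Ino80*, the motor of the complex, had 9.90, 12.6, 10.2 and 10.95 RPM in *Setd1b* cKO and 9.15, 10.9 and 11.04 RPM in *Setd1b* WT. The genotypes covered the same narrow range, and the log2 fold change was 0.07 (SE 0.23, 95% confidence interval -0.45 to 0.58, adjusted p = 0.909 in limma). *Ino80d*, another subunit, had a log2 fold change of -0.16 (SE 0.22, adjusted p = 0.755 in limma), measured over 66.9 kb of an annotated gene of 156 kb.

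**Figure D2:**
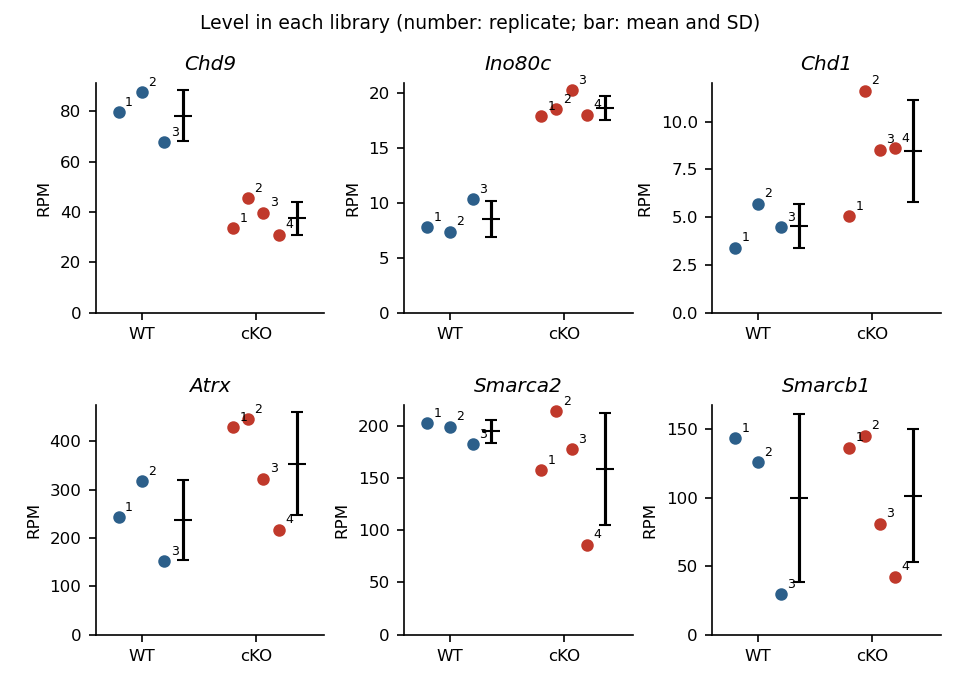
RPM of 6 genes in each library (1 point per oocyte, the number giving the replicate, with the mean and SD at the right of each genotype, 3 *Setd1b* WT and 4 *Setd1b* cKO oocytes, each axis from 0). *Chd9* and *Ino80c* separate the genotypes, *Chd1* and *Atrx* overlap, and *Smarca2* and *Smarcb1* are lowest in cKO replicate 4 among the cKO oocytes.

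No SWI/SNF gene passed the threshold. Of 8 genes, 7 were tested, with log2 fold changes of -0.36 to 0.31 and a median of 0.21, and 6 of the 7 lay above 0. The complex has a choice of 2 motors, *Smarca4* (BRG1) and *Smarca2* (BRM). Scaled to annotated exon length, *Smarca2* had 12.2 RPM per kb over all 7 oocytes and *Smarca4* 1.88 RPM per kb. *Smarca2* had 157.6, 213.5, 177.4 and 86.2 RPM in *Setd1b* cKO and 202.4, 199.0 and 182.1 RPM in *Setd1b* WT. Replicates 1, 3 and 4 of *Setd1b* cKO lay below all WT oocytes, replicate 4 farthest, and replicate 2 lay above them. The log2 fold change was -0.36 (SE 0.29, 95% confidence interval -1.01 to 0.28, adjusted p = 0.527 in limma), and -0.10 without cKO replicate 4. *Smarca4* had 9.01, 13.2, 14.1 and 15.5 RPM in *Setd1b* cKO and 10.2, 8.79 and 14.2 RPM in *Setd1b* WT, overlapping throughout, with a log2 fold change of 0.21 (SE 0.28, adjusted p = 0.731 in limma).

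The *Smarca2* promoter is shown as an example near the median of the members, for which the RefSeq window (GRCm38.p6, chr19:26604910-26605209, plus strand) lies within 1000 bases of the 5' end of the deposited transcript, with each CG in capitals.
Smarca2 promoter: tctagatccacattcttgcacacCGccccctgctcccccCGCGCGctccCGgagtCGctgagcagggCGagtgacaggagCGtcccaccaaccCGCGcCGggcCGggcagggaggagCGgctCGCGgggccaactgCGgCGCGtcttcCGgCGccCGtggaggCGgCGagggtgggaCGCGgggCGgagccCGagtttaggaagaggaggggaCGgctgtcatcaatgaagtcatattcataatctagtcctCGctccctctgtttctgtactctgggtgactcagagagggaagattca
It holds 29 CG, a number reached by 12.9% of all RefSeq promoters. Of the 40 members 28 had a promoter in the RefSeq table, and for 25 of these the annotated start lay within 1000 bases of the 5' end of the deposited transcript. The 25 windows had a median of 30 CG (5 to 46) and 65.7% G and C, against 7 CG and 52.7% over all promoters, and 11.7% of all promoters held 30 or more. The motif searched was CG, which reads the same on both strands, and 94.6% of all windows held at least 1.

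Of the core subunits, *Smarcb1* (SNF5, the subunit lost in rhabdoid tumours) varied most between oocytes of the same genotype. It had 136.3, 145.1, 81.1 and 42.3 RPM in *Setd1b* cKO and 143.4, 125.9 and 29.5 RPM in *Setd1b* WT. The 2 lowest values were those of cKO replicate 4 and WT replicate 3, and the range within a genotype was 1.75 on the log2 scale in *Setd1b* cKO and 2.24 in *Setd1b* WT. The log2 fold change of 0.16 had an SE of 0.56 and a 95% confidence interval of -1.07 to 1.39 (adjusted p = 0.912 in limma). A 2-fold difference in either direction was thus not excluded. Its transcript overlaps that of *Derl3* on the other strand (37.5 RPM) by 91 bases. *Brd7*, the bromodomain subunit of the PBAF form, had 52.9, 52.2, 59.3 and 35.7 RPM in *Setd1b* cKO and 49.8, 41.5 and 29.8 RPM in *Setd1b* WT. Replicates 1, 2 and 3 of *Setd1b* cKO lay above the WT oocytes, and the log2 fold change was 0.31 (SE 0.26, adjusted p = 0.546 in limma), or 0.11 without WT replicate 3 and 0.47 without WT replicate 1. *Smarce1*, *Smarcc1* and *Smarcd2*, further core subunits, had log2 fold changes of 0.22, 0.26 and 0.09. *Smarcd1* did not pass the filter, with 0.522 RPM or less in every oocyte.

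No gene of the ISWI and BAZ group passed the threshold either. Of 7 genes, 6 were tested, with log2 fold changes of -0.13 to 0.27 and a median of 0.04, the narrowest range of the families. *Smarca5* (SNF2H), the ISWI motor known to be needed in early development, had 83.3, 119.4, 85.9 and 71.0 RPM in *Setd1b* cKO and 73.0, 88.0 and 61.1 RPM in *Setd1b* WT. Replicate 2 of *Setd1b* cKO was highest and the rest overlapped, with a log2 fold change of 0.27 (SE 0.24, 95% confidence interval -0.26 to 0.79, adjusted p = 0.580 in limma). *Smarca1* (SNF2L), the other ISWI motor, was close to the detection limit and did not pass the filter. It had 1.29, 0.906, 0 and 1.28 RPM in *Setd1b* cKO and 0.162, 0 and 0.0936 RPM in *Setd1b* WT. All cKO oocytes but replicate 3 lay above the level of 3 reads (0.231 to 0.35 RPM) and no WT oocyte did. It entered only the fit without a filter, where the log2 fold change was 0.71 (adjusted p = 0.383 in limma), and *Smarca1* stood at 0.0871 RPM per kb of exon against 10.7 RPM per kb for *Smarca5*.

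*Bptf*, the large subunit of NURF that reads methylated H3K4, had 118.5, 125.8, 111.8 and 108.5 RPM in *Setd1b* cKO and 136.1, 131.6 and 113.4 RPM in *Setd1b* WT. The genotypes overlapped, with the 2 lowest oocytes in *Setd1b* cKO and the 2 highest in *Setd1b* WT. The log2 fold change was -0.13 (SE 0.19, 95% confidence interval -0.54 to 0.29, adjusted p = 0.766 in limma). *Baz1b* (WSTF), singled out after its values were seen, had 36.9, 37.1, 36.7 and 33.1 RPM in *Setd1b* cKO and 30.0, 31.4 and 28.2 RPM in *Setd1b* WT. The genotypes did not overlap, yet the log2 fold change was 0.26 (SE 0.20, adjusted p = 0.4998 in limma). *Baz1a*, *Baz2a* and *Baz2b*, accessory subunits with bromodomains, had log2 fold changes of -0.02, 0.11 and -0.09.

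**Figure D3:**
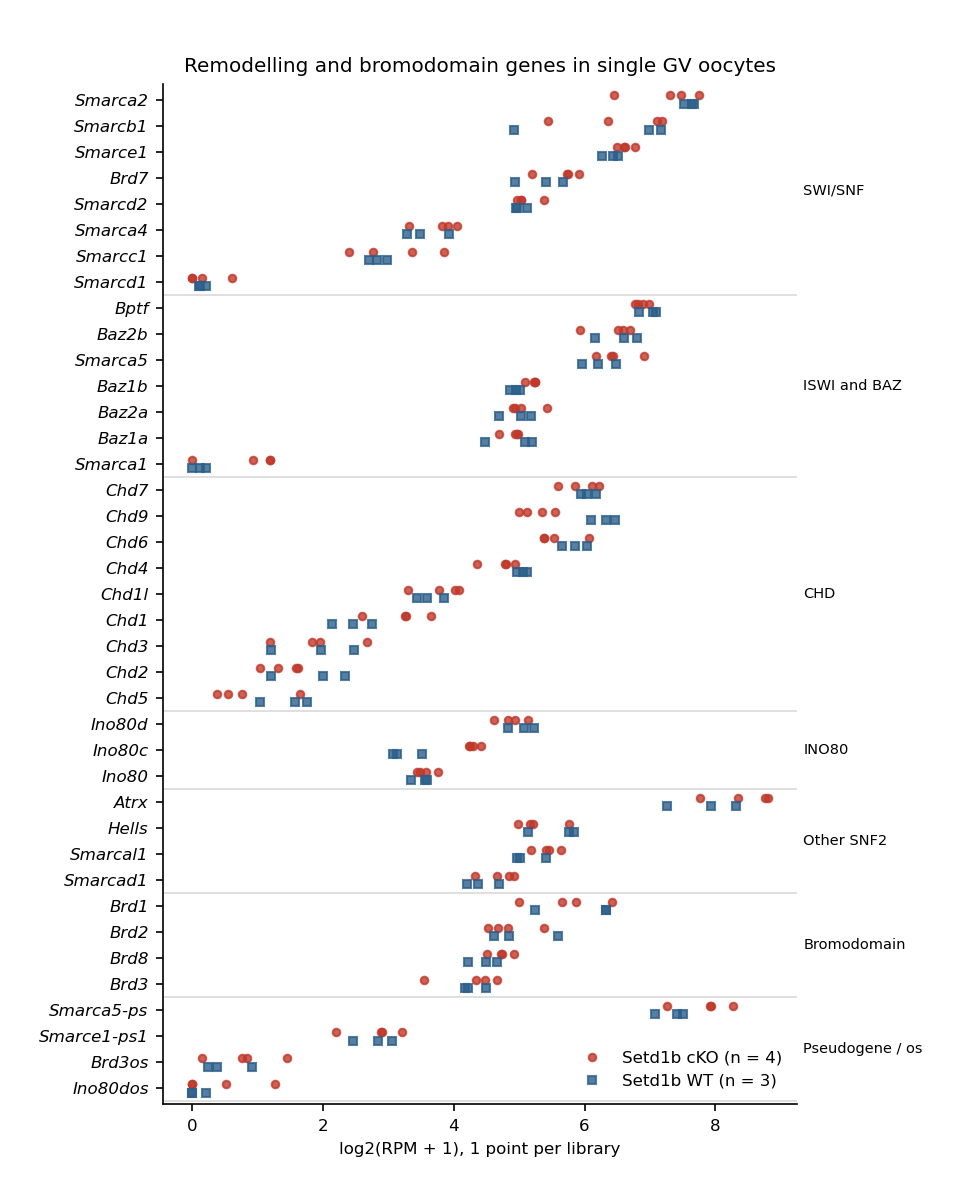
Level of 39 of the 40 genes as log2(RPM + 1) in each library (x axis, 1 point per oocyte, red circles for 4 *Setd1b* cKO and blue squares for 3 *Setd1b* WT oocytes), in order of family; values are not scaled to gene length. The genotypes separate for *Chd9* and *Ino80c*, by less for *Chd4* and *Baz1b*, and *Smarcd1*, *Smarca1* and *Ino80dos* lie near 0.

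The other SNF2 helicases (*Atrx*, *Hells*, *Smarcad1* and *Smarcal1*) were all tested and none passed the threshold. Their log2 fold changes ran from -0.30 to 0.58 with a median of 0.28, and 3 of 4 lay above 0. *Atrx*, which loads the histone variant H3.3 at repeats with DAXX and is known to act at pericentric heterochromatin of oocytes, was the member with the highest value per exon length whose transcript matched its annotated gene, at 14.0 RPM per kb. It had 430.2, 446.1, 323.0 and 217.7 RPM in *Setd1b* cKO and 242.9, 317.4 and 152.1 RPM in *Setd1b* WT. Replicates 1, 2 and 3 of *Setd1b* cKO lay above all WT oocytes, and cKO replicate 4 and WT replicate 3 were the lowest of their genotypes. The means were 354 ± 106 RPM (SD, n = 4) and 237 ± 82.8 RPM (SD, n = 3), with a log2 fold change of 0.58 (SE 0.32, 95% confidence interval -0.12 to 1.29, adjusted p = 0.325 in limma). Over the alternatives tried it stayed between 0.29 (without WT replicate 3) and 0.82 (without WT replicate 2), under 2-fold in each, while the adjusted p in limma ran from 0.0209 (with the replicate number as a block, log2 fold change 0.80) to 0.639 (without WT replicate 3).

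At the start of *Atrx* a second deposited transcript runs on the opposite strand (chrX:105926698-105933846, GRCm38) and shares 2.756 kb with it. It is no member, and it was singled out after its values were seen. It had 5.15, 2.80, 3.83 and 4.89 RPM in *Setd1b* cKO and 17.1, 18.1 and 18.7 RPM in *Setd1b* WT. The genotypes did not overlap and it fell, with a log2 fold change of -1.90 (SE 0.27, adjusted p = 0.00444 in limma), and over 22 alternatives from -2.31 to -1.33 (limma adjusted p from 0.000722 to 0.0302). Its difference was opposite in sign to that of *Atrx*, whose own values overlapped. Use of the strand in counting is not given in the sources used here, so that reads of the shared stretch cannot be told apart between them. The RefSeq promoter of *Atrx* (GRCm38.p6, chrX:105929323-105929622, minus strand) lies within this opposite transcript, and is shown for that reason with each CG in capitals.
Atrx promoter: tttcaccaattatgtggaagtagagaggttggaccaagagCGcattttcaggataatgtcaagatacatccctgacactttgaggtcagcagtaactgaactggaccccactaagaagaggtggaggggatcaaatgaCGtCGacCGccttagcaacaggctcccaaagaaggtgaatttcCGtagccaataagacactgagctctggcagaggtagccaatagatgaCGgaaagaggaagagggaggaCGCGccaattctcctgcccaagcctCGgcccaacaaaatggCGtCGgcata
It holds 11 CG, and 41.4% of all RefSeq promoters hold as many or more.

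*Hells* (LSH), a helicase needed for DNA methylation of repeats, had 35.0, 53.0, 36.2 and 30.8 RPM in *Setd1b* cKO and 53.3, 56.0 and 34.3 RPM in *Setd1b* WT. The genotypes overlapped, with replicate 2 of *Setd1b* cKO at the level of WT replicate 1, and the log2 fold change was -0.30 (SE 0.26, 95% confidence interval -0.88 to 0.28, adjusted p = 0.580 in limma). *Smarcal1*, which anneals DNA at stalled replication forks, had 43.2, 48.7, 41.7 and 35.4 RPM in *Setd1b* cKO and 41.5, 31.4 and 30.4 RPM in *Setd1b* WT, with a log2 fold change of 0.29 (SE 0.22, adjusted p = 0.497 in limma). *Smarcad1*, a remodeller of heterochromatin, had 29.3, 24.4, 19.2 and 27.7 RPM in *Setd1b* cKO and 17.5, 24.8 and 19.7 RPM in *Setd1b* WT, with a log2 fold change of 0.27 (SE 0.24, adjusted p = 0.583 in limma). The genotypes overlapped for both.

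Of the 5 further bromodomain genes, all were tested and none passed the threshold. Their log2 fold changes ran from -0.23 to 0.26 with a median of -0.17, and 4 of 5 lay below 0. *Brd1*, a scaffold of histone acetyltransferase complexes, had 49.3, 84.4, 57.2 and 30.9 RPM in *Setd1b* cKO and 79.0, 79.1 and 37.1 RPM in *Setd1b* WT. Its spread within each genotype was wider than the difference between them, and the log2 fold change of -0.23 had an SE of 0.36 (adjusted p = 0.775 in limma). *Brd2* and *Brd3*, of the BET family, had log2 fold changes of -0.17 and -0.04, and *Brd8*, a subunit of the TIP60 complex, 0.26. The transcript of *Brd8* (23.7 RPM) shares 0.426 kb with that of *Kif20a* on the other strand (63.9 RPM), and reads of that stretch cannot be told apart.

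Of the 4 symbols of pseudogenes or opposite-strand transcripts, only *Smarca5-ps* and *Smarce1-ps1* passed the filter, and *Brd3os* and *Ino80dos* had under 2 RPM in every library. *Smarca5-ps* had 240.3, 307.0, 244.5 and 151.7 RPM in *Setd1b* cKO and 169.1, 179.8 and 133.7 RPM in *Setd1b* WT. Replicates 1, 2 and 3 of *Setd1b* cKO were above all WT oocytes, and the log2 fold change was 0.52 (SE 0.26, 95% confidence interval -0.06 to 1.09, adjusted p = 0.281 in limma). The deposited transcript spans 382.9 kb (chr4:145464204-145847085, plus strand, GRCm38), whereas the annotated pseudogene spans 3.217 kb at its 5' end, and the zinc finger genes *Zfp990*, *Zfp980* and *Gm13212* lie on the same strand inside it. The value is therefore that of the whole span and not of the pseudogene, and reads that fit *Smarca5* or other copies equally well were removed by the authors' filter on mapping quality. *Smarce1-ps1* had a log2 fold change of 0.02 (SE 0.31).

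**Figure D4:**
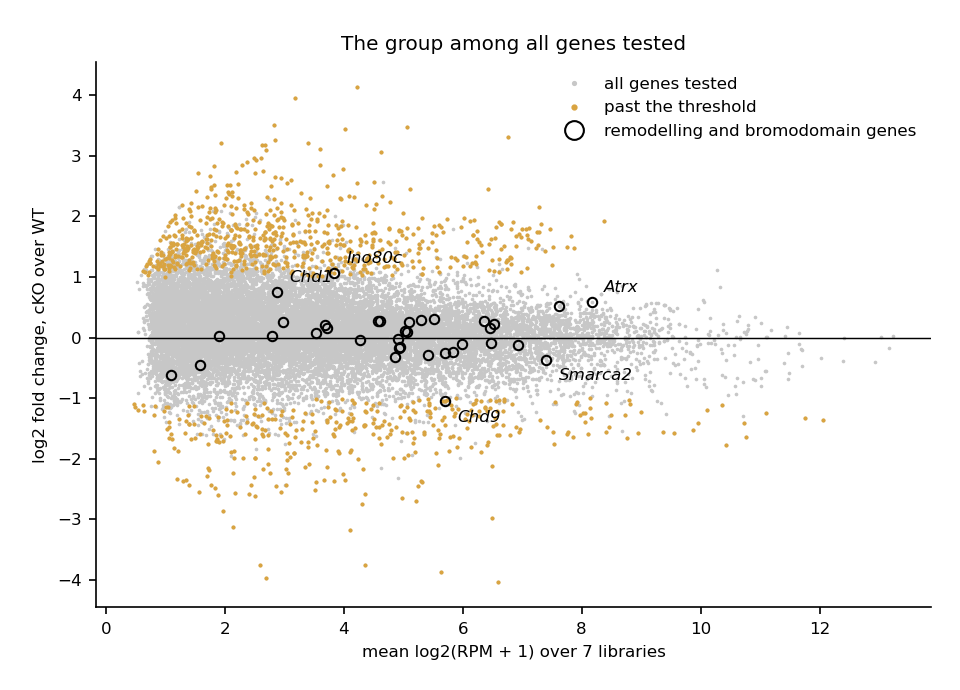
Log2 fold change of *Setd1b* cKO over *Setd1b* WT (y axis) against the mean log2(RPM + 1) over 7 libraries (x axis) for all 18179 genes tested (grey), those past the threshold (orange) and 35 of the 36 tested members (rings). Of the rings, 29 lie between -0.5 and 0.5, and *Chd9* and *Ino80c* are on points past the threshold.

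For some members the spread between oocytes of a genotype was wider than the difference between the genotypes. Among the 4 cKO oocytes, replicate 4 was lowest for 18 of the 36 tested members, beside 37.4% of all genes tested, and replicate 2 highest for 16, beside 29.4%. Among the 3 WT oocytes, replicate 3 was lowest for 17 members, beside 40.4% of all genes. Replicate 4 of *Setd1b* cKO and replicate 3 of *Setd1b* WT were both the lowest of their genotype for *Smarcb1*, *Brd1*, *Atrx*, *Brd7*, *Hells* and *Smarca2*, genes picked here after their values were seen. *Brd2* went the other way, with 24.5, 22.0, 27.5 and 40.5 RPM in *Setd1b* cKO and 23.5, 27.7 and 47.5 RPM in *Setd1b* WT, the same replicates being the highest. Leaving out both libraries, a setting chosen after seeing the data, changed neither count of members past the threshold.

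**Figure D5:**
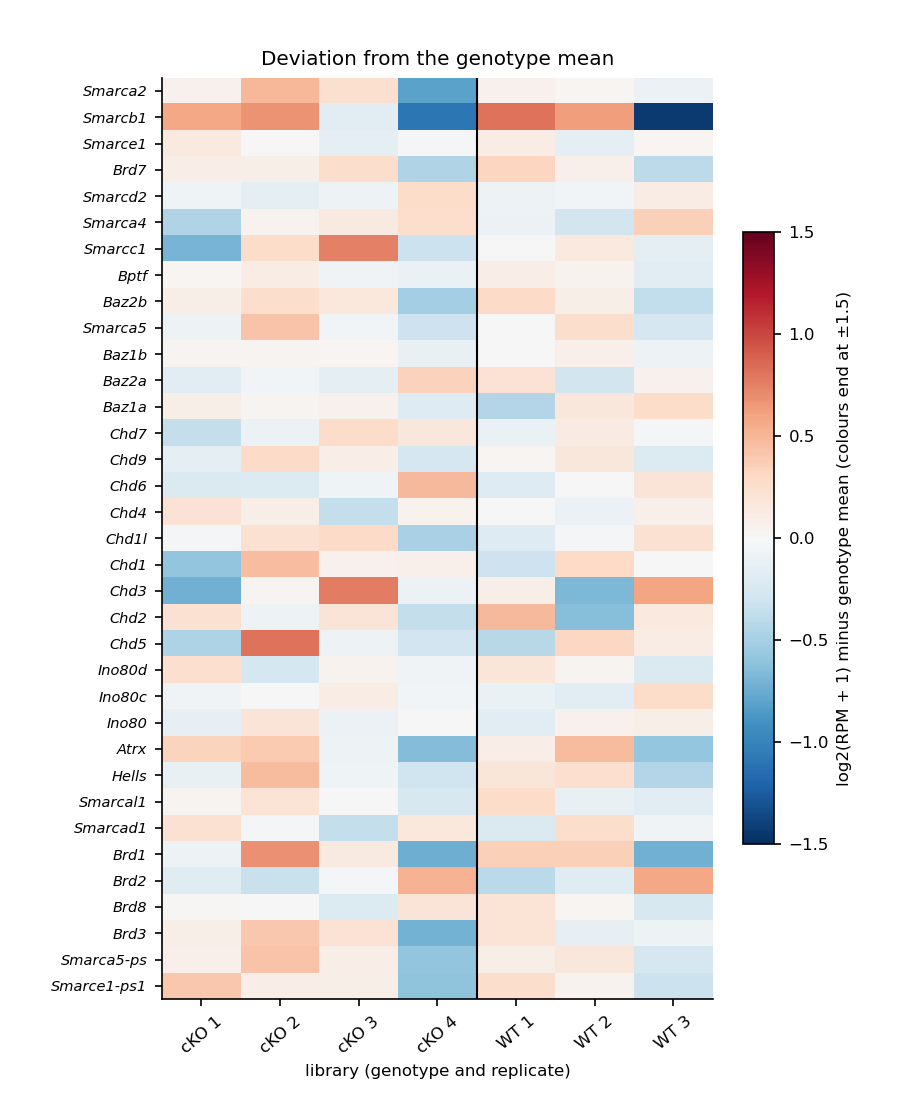
Deviation of each library from the mean of its genotype, in log2(RPM + 1) (colour, red above and blue below the mean), for 35 of the 36 tested members (rows, in order of family) and 7 libraries (columns). Replicate 4 of *Setd1b* cKO and replicate 3 of *Setd1b* WT are blue together for *Smarcb1*, *Atrx* and *Brd1* and red together for *Brd2*.

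Genes that work with the members, which the rule does not take by name, were described from 6 lists with 95 symbols, of which 72 were in the table and 68 were tested. Of these, 2 rose and none fell past the threshold (2.94%, beside 5.71% of all genes tested, 3.76% higher and 1.95% lower). Their log2 fold changes had a median of 0.04, and 38 lay above 0 and 30 below. At an unadjusted p under 0.05 limma had 4 higher and 6 lower genes (14.7%, beside 21.7% of all genes), and voom on the recovered reads put 2 higher and 0 lower past the threshold. *Hdac1*, one of the NuRD deacetylases, had 60.6, 60.9, 60.9 and 55.8 RPM in *Setd1b* cKO and 22.7, 22.6 and 17.6 RPM in *Setd1b* WT. The cKO oocytes lay close together and far above the WT oocytes, with a log2 fold change of 1.47 (SE 0.20, adjusted p = 0.00417 in limma), and the call held in all 23 alternatives tried. *Hdac2*, its close relative in the same complex, was added after its values were seen and had a log2 fold change of 0.03 (adjusted p = 0.96 in limma). *Zmynd8*, a bromodomain reader that works with NuRD, had 354.8, 252.3, 250.7 and 556.8 RPM in *Setd1b* cKO and 90.1, 103.9 and 175.8 RPM in *Setd1b* WT. The genotypes did not overlap, and the log2 fold change was 1.49 (SE 0.33, adjusted p = 0.0248 in limma), but the call was lost without cKO replicate 1, WT replicate 1 or WT replicate 2 (limma adjusted p up to 0.119), and also without a filter, after centring on the median gene and in voom with median-of-ratios sizes (adjusted p up to 0.151).

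By complex, 1 of 9 tested NuRD subunits rose (*Hdac1*) with a median log2 fold change of 0.14, 1 of 16 other bromodomain genes rose (*Zmynd8*) with a median of -0.06, and none of 10 SWI/SNF subunits (median -0.23), 5 ISWI partners (-0.14), 18 subunits of INO80, SRCAP and TIP60 (0.17) or 13 other SNF2 helicases and partners (0.14) passed the limma threshold. An unadjusted p under 0.05 was reached by 4 of the other bromodomain genes, 3 of the SWI/SNF subunits, 1 NuRD subunit, 1 ISWI partner, 1 subunit of INO80, SRCAP and TIP60 and 0 of the other SNF2 genes, beside 21.7% of all genes. *Arid1a*, the DNA-binding subunit of the BAF form of SWI/SNF, was singled out after its values were seen. It had 41.2, 53.4, 51.7 and 52.1 RPM in *Setd1b* cKO and 93.6, 98.1 and 96.5 RPM in *Setd1b* WT. The genotypes were far apart, with a log2 fold change of -0.95 (SE 0.20, adjusted p = 0.0194 in limma), which was under the limit of 2-fold. With 1 library left out the adjusted p of *Arid1a* in limma ran from 0.0151 to 0.0915.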

How the data were processed

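The cDNA of each oocyte was amplified by the authors for 12 cycles (SMARTer) and sequenced as single reads of 75 bases. Per the study's methods and the labels, reads were demultiplexed with bcl2fastq 1.8.4, trimmed with trim galore and mapped with Hisat to GRCm38, and hits under a mapping quality of 20 were removed, which depletes reads of near-identical copies. The labels also name featureCounts 1.4.4, with no role given. Reads were quantified in SeqMonk over merged oocyte transcripts. The deposited unit is log2 RPM, for which the authors scaled reads to all mapped reads of a library, with 0.9 read in place of 0 reads. Whole reads were recovered for at least 99.96% of the values (tolerance 0.02 read).

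Values were converted to log2(RPM + 1), and transcripts with at least 1 RPM in at least 3 of 7 libraries were compared with lmFit and eBayes with trend in limma 3.58.1 (R 4.3.3). No covariate was used, with Benjamini-Hochberg adjustment over all of them. The test is limma and not a count model because the unit is log2. Spans and exon lengths were taken from GENCODE M21 (GRCm38) and promoters from RefSeq (GRCm38.p6). *Setd1b* was matched by its span, since its row carried another symbol. Scripts used Python 3.11.15 and were tested on simulated data. The members and the lists were chosen with earlier results of these data known. Named genes were members past the threshold or with an adjusted p under 0.05, the 6 largest differences in each direction with a mean of at least 8 RPM, the 5 members of highest mean and 12 fixed motors and readers, with the other genes of the complexes past the threshold. Alternatives were other pseudocounts (0.1 and 5 RPM), filters (none, or a mean of at least 4 RPM), scalings, moderation, quality weights, a replicate block, voom on recovered reads and each library left out. The values of 1 named member are not reported here.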

Additional observations from a re-analysis of the deposited data

Results flagged for a closer look

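Within the 4 *Setd1b* cKO oocytes, 1 oocyte lay far from the others for 3 of the 40 members, where chance gives about 2 over any of the 4 oocytes. In all 3 cases it was replicate 4, one of the libraries that stood apart. The gap to the nearest oocyte, as a share of the whole range, was 0.849 for *Baz1a* (24.9 RPM against 29.7 to 30.6 RPM), 0.898 for *Baz1b* (33.1 RPM against 36.7 to 37.1 RPM) and 0.864 for *Smarcd2* (40.5 RPM against 30.4 to 31.8 RPM). None of these genes passed the threshold between the genotypes.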

How the results depend on the processing

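The log2 scale with 7 oocytes gave a median standard error of 0.25 for the members, which limits what could be called near 2-fold. Of the members, 1 was higher and 1 lower past the threshold. None was higher with a pseudocount of 5 RPM, after centring on the median gene or after quantile normalisation (0 in each), and none was lower with a pseudocount of 5 RPM, without a filter, with scaling to the reads within transcripts or with a replicate block (0 in each). With 1 library left out both counts were 0 to 1. *Chd9* stayed past the threshold in 14 of 23 alternatives and *Ino80c* in 15 of 23. Of the other genes of the complexes, 2 were higher, but 1 without a filter, after centring and in voom with median-of-ratios sizes, and 1 to 2 with a library left out. None of them was lower, but 2 after centring, 1 with the replicate block, 2 in voom with median-of-ratios sizes, and 0 to 1 with a library left out. The deviations of same-numbered libraries correlated across genes with r = 0.19, 0.29 and -0.13, mixed in sign, so that the numbers were not taken as pairs. In the fit with the replicate block cKO replicate 4, which has no partner, adds nothing to the difference.

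Scaling and the model moved the split of all calls. Of the 683 higher and 355 lower genes 65.8% were higher, against 46.3% after centring, 49.2% after quantile normalisation, 72.9% with scaling to the reads within transcripts, 57.5% in voom on recovered reads and 43.8% in voom with median-of-ratios sizes. Over all genes the median difference was 0.12 on the log2 scale, and values above are not corrected for it. Voom on recovered reads called 443 higher and 328 lower.

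The sign turned in at least 1 alternative for 12 of the 36 tested members, 4 of them named by the rule. The other 8 (*Baz1a*, *Baz2a*, *Baz2b*, *Brd2*, *Brd3*, *Chd7*, *Smarcd2* and *Smarce1-ps1*) stayed within 0.37 of 0 on the log2 scale. *Brd1* was 0.012 with the replicate block and -0.59 to 0.012 with a library left out. *Chd3* was -0.13 after centring, -0.20 after quantile normalisation, -0.013 in voom with median-of-ratios sizes, and -0.31 to 0.33 with a library left out. *Ino80* was -0.088, -0.078 and -0.062 in the same 3 settings and -0.011 to 0.11 with a library left out. *Smarcb1* was -0.0058 with library quality weights, -0.20 without cKO replicate 4 and WT replicate 3 (a setting chosen after seeing the data), and -0.56 to 0.56 with a library left out. None of these 4 passed the threshold in any setting, and the cause was not tested.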
